A study of Mus musculus with 8 samples.

Results

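The genes described here are 20 subunits of the cytosolic aminoacyl-tRNA synthetases and 15 stress genes that the transcription factor ATF4 is known to drive or to work with. They were chosen by name, and each was read through the probe with the highest mean signal over the 8 arrays. All 35 were found, on 43 probes, among 34715 gene names on the array. Of the 35 genes, 34 passed the filter on dim probes and were tested among 20677 genes, while Cebpb did not pass. The study asked how the microRNA miR-125b changes gene expression in B cell precursors. RNA came from 1676 cells, a mouse pre-B line that lacks the adaptor proteins SLP-65 and LAT (SLP-65-/- LAT-/-) in every group, controls included. The cells carried either a retroviral control vector or one that encodes the human microRNA hsa-miR-125b-1, were selected with puromycin, and grew in medium with IL-7 supplied as a culture supernatant. The 4 groups were control and miR-125b cells with IL-7, and control and miR-125b cells kept for 24 h without it, each with 2 arrays from cell clones made independently for each experiment. The groups stand for this single line, and no animals were compared.

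Aminoacyl-tRNA synthetases join each amino acid to its tRNA and so supply the ribosome. When uncharged tRNA builds up, when unfolded protein collects in the endoplasmic reticulum or when other stress strikes, kinases phosphorylate the initiation factor eIF2. Translation in general then slows, while the mRNA of ATF4 is translated more. ATF4, with partners of the C/EBP family, raises genes for amino acid synthesis and import, for tRNA charging and for the stress response itself. Growth signals through mTORC1, to which IL-7 contributes in precursor B cells, also feed into ATF4 and into the demand for charged tRNA.

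The mature mouse miR-125b is shown because it is the agent that separates the groups, with the seed (bases 2 to 8) in capitals, as RefSeq gives it with GRCm38.p6.
mmu-miR-125b-5p: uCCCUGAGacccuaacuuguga

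ATF4 and its C/EBP partners are known to bind a composite element, here searched as its core TGATGNAA on both strands of windows that run from 250 bases before to 50 bases after each RefSeq gene start (GRCm38.p6). Of the 35 genes, 26 have a window, and 11 of these (42.3%) hold the core, against 1219 of 27025 genes (4.51%) with a window in the same table. The core lay in the windows of 5 of 13 synthetases (38.5%) and of 6 of 13 stress genes (46.2%). The genes were chosen partly because they are known ATF4 targets, so these shares describe the choice, and a match of letters is not evidence of binding. For 7 of the 11 genes the stretch upstream of the start is shown, because the core is what these genes have in common there, with the core in capitals.
Chac1, chr2:119351034-119351071, + strand: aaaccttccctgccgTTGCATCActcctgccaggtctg
Asns, chr6:7693210-7693247, - strand: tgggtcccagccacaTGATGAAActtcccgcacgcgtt
Pycr1, chr11:120643829-120643866, - strand: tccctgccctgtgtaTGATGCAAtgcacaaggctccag
Nupr1, chr7:126625558-126625595, - strand: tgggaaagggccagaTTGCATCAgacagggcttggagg
Vldlr, chr19:27216805-27216842, + strand: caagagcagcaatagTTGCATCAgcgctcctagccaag
Gars, chr6:55037956-55037993, + strand: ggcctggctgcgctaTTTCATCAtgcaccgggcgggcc
Tars, chr15:11399659-11399688, - strand: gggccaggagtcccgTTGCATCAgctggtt
Each run reads 5′ to 3′ on the strand of the gene. The core begins 193 bases before the start in Chac1 and 15 in Tars. In Iars, Yars and Trib3 it begins 8, 4 and 15 bases inside the transcript, and those letters are not shown. Among the stress genes with a window, Ddit4, Cebpg, Aldh18a1, Ddit3, Atf4, Atf5 and Cebpb have no such core in it.

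All levels below are log2 signals relative to the array's own 75th percentile, so 0 is the signal at that percentile. On each array 47.7% to 54.8% of probes were well above background, and 0 spots were saturated. All 4 arrays with IL-7 shared 1 slide and scan and all 4 without IL-7 another, so an effect of withdrawal and one of slide or scan cannot be told apart. Within each slide the control and miR-125b arrays lay at different positions, so the vector and the position cannot be told apart. Of 10 B-lineage markers, 10 were well above background on all arrays. Their summed level (in multiples of the 75th percentile) was 2033 to 2064 in control and 1938 to 1967 in miR-125b cells with IL-7, and 1564 to 1573 and 1529 to 1557 without it. Of 6 plasma cell markers 4 were above background throughout, and their sum was 20.2 to 22.0 and 18.7 to 20.5 with IL-7 against 37.1 to 37.2 and 35.8 to 36.7 without, while Jchain was above background on 2 arrays and Tnfrsf17 on 1. Of 10 myeloid markers 5 (Csf1r, Csf3r, Elane, Fcgr3 and Itgam) were above background on every array and 2 (S100a8 and S100a9) on none. Of 9 T and NK markers with a probe, 3 (Cd3e, Cd4 and Nkg7) were above background on every array and 4 on none. Of 6 erythroid markers with a probe, 3 were above background on every array and 2 on none. Of 7 stromal markers 1 was above background on every array and 3 on none. The part of these markers in the results below was not tested. Each array pools many cells, so fewer cells with a transcript and less transcript per cell cannot be told apart.

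Which of these genes differed with miR-125b was asked by averaging the difference over both IL-7 conditions. Ddit4, which encodes an inhibitor of mTORC1 (REDD1), and Cebpg, a C/EBP partner of ATF4, fell. Pycr1 and Aldh18a1, which both act in proline synthesis, Cth, which makes cysteine, and Iars, the isoleucyl-tRNA synthetase, rose. These 6 of 34 genes passed limma's test (p adjusted over all genes by Benjamini-Hochberg, under 0.05), the rule for every call here, where 15.8% of all genes were called. Higher calls were 4 of 34 genes against 7.27% of all genes, and lower calls 2 of 34 against 8.57%. The median change was 0.16 over the 20 synthetases and −0.04 over the 14 stress genes tested, against −0.03 over all genes. Of all calls 45.9% were higher, and 78.8% were with scaling to the median.

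Ddit4 was read by a probe at chr10:59412486-59412545 (mm9, as are all probe positions here). Its level was 4.70 and 5.04 in control and 3.84 and 3.91 in miR-125b cells with IL-7, and 6.32 and 6.35 in control and 5.36 and 5.18 in miR-125b cells without it. The 4 groups did not overlap: miR-125b arrays lay below control arrays in each condition, and arrays without IL-7 lay above those with it. The change with miR-125b was −0.99 (SE 0.13, adjusted p = 0.0326) with IL-7, −1.07 (SE 0.13, adjusted p = 0.0161) without it and −1.03 (SE 0.09, adjusted p = 0.00419) on average. The average fall was called under all 18 alternatives tried, with a change between −1.12 and −0.88. The call with IL-7 was lost when any 1 of 7 arrays was left out (adjusted p 0.0746 to 0.103), all but control replicate 1 with IL-7. The call without IL-7 was lost without any 1 of the 4 arrays of that condition (adjusted p 0.0757 to 0.1003).

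Cebpg (chr7:35835477-35835536) stood at 1.40 and 1.34 in control and 1.11 and 1.15 in miR-125b cells with IL-7, and at 1.02 and 0.92 in control and 0.60 and 0.54 in miR-125b cells without it. Both miR-125b arrays lay below both control arrays in each condition, and both arrays without IL-7 below both with it. The average change was −0.32 (SE 0.05, adjusted p = 0.0173). The call was lost without control replicate 1 or either miR-125b replicate without IL-7 (adjusted p 0.0578 to 0.0698), with no filter on dim probes (adjusted p = 0.068), and with scaling to the median (adjusted p = 0.213), which moves the median of all genes from −0.03 to 0.12.

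The pair of genes for proline synthesis was highest in miR-125b cells. Pycr1 (chr11:120501179-120501238), whose enzyme makes proline in the last step of its synthesis, had levels of −0.62 and −0.66 in control and −0.52 and −0.19 in miR-125b cells with IL-7. Without IL-7 it had −2.16 and −1.63 in control and −0.71 and −0.52 in miR-125b cells. The control arrays without IL-7 were thus the lowest of all 8, below the next array by more than the spread within any group. The change with miR-125b was 0.78 on average (SE 0.14, adjusted p = 0.0216), 1.28 without IL-7 (SE 0.20, adjusted p = 0.0290) and 0.29 with it (SE 0.20, adjusted p = 0.475). A further Pycr1 probe was above background on 1 array and gives no level.

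Aldh18a1 (chr19:40624730-40624767), whose enzyme starts proline synthesis from glutamate, read 1.05 and 1.04 in control and 1.25 and 1.48 in miR-125b cells with IL-7. Without IL-7 it read 0.55 and 0.70 in control and 1.10 and 1.35 in miR-125b cells. The miR-125b arrays lay above the control arrays in each condition, with an average change of 0.46 (SE 0.09, adjusted p = 0.0258).

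Cth (chr3:157560183-157560242), the enzyme that releases cysteine from cystathionine, was at 0.80 and 0.81 in control and 1.28 and 1.23 in miR-125b cells with IL-7. Without IL-7 it was at 0.45 and 0.76 in control and 1.04 and 1.37 in miR-125b cells. All 4 miR-125b arrays lay above all 4 control arrays, with an average change of 0.53 (SE 0.10, adjusted p = 0.0267). Another Cth probe gave 0.46.

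Iars (chr13:49829328-49829387) measured 4.90 and 4.92 in control and 5.06 and 5.22 in miR-125b cells with IL-7, and 4.41 and 4.59 in control and 4.97 and 5.06 in miR-125b cells without it. The miR-125b arrays lay above the control arrays in each condition. The change was 0.37 on average (SE 0.07, adjusted p = 0.0219), 0.52 without IL-7 (SE 0.10, adjusted p = 0.0398) and 0.23 with it (SE 0.10, adjusted p = 0.262).

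Each of these 4 higher calls was lost in 6 of the 8 fits that left out 1 array. Without control replicate 1 or 2 with IL-7, miR-125b replicate 2 with IL-7, control replicate 1 without IL-7 or miR-125b replicate 2 without IL-7, 0 of the 4 was called. Pycr1 and Iars were also lost without miR-125b replicate 1 without IL-7, Aldh18a1 without control replicate 2 without IL-7 and Cth without miR-125b replicate 1 with IL-7. In these fits the changes were 0.65 to 0.83 for Pycr1, 0.40 to 0.50 for Aldh18a1, 0.44 to 0.54 for Cth and 0.33 to 0.40 for Iars, with adjusted p between 0.0503 and 0.0914. The direction held under all alternatives tried.

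**Figure D1:**
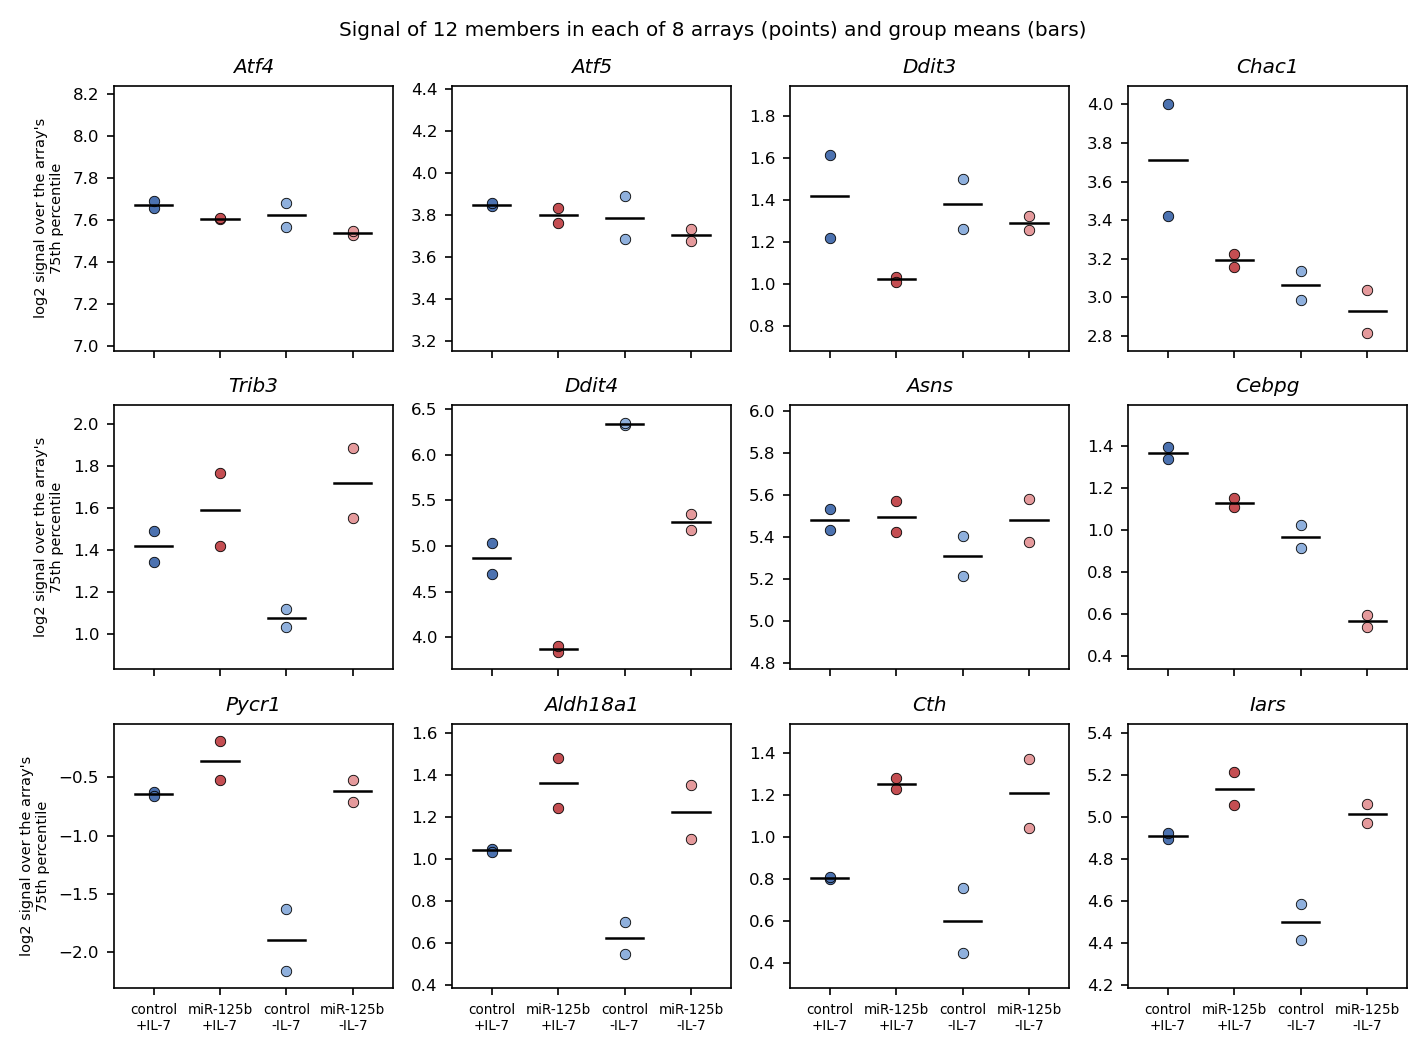
Log2 signal relative to the array's 75th percentile (y axis) of 12 genes in the 4 groups (x axis), with a point for each array and a bar at the mean of each group of 2. Ddit4 was lowest in miR-125b cells with IL-7 (3.84 and 3.91) and highest in control cells without IL-7 (6.32 and 6.35), and Pycr1 was lowest in control cells without IL-7 (−2.16 and −1.63).

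Atf4 itself and the factors Atf5 and Ddit3 were not called with miR-125b. Atf4 (chr15:80087902-80087961), whose protein is mostly set by translation, had levels of 7.65 and 7.69 in control and 7.60 and 7.61 in miR-125b cells with IL-7, and of 7.57 and 7.68 in control and 7.53 and 7.55 in miR-125b cells without it. Both miR-125b arrays lay just below both control arrays in each condition. The average change was −0.08 (SE 0.05, adjusted p = 0.349), and another Atf4 probe gave −0.12.

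Atf5, an ATF4-like factor, stood at 3.84 and 3.85 in control and 3.76 and 3.83 in miR-125b cells with IL-7, and at 3.68 and 3.89 in control and 3.68 and 3.73 in miR-125b cells without it. The arrays without IL-7 overlapped between the vectors. Its average change was −0.07 (SE 0.06, adjusted p = 0.521).

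Ddit3, which encodes the stress factor CHOP, had 1.22 and 1.62 in control and 1.03 and 1.01 in miR-125b cells with IL-7, and 1.26 and 1.50 in control and 1.26 and 1.33 in miR-125b cells without it. The vectors were apart with IL-7 and overlapped without it. The average change was −0.24 (SE 0.11, adjusted p = 0.179).

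Effector genes gave mixed values. Chac1, which breaks down glutathione, was at 3.42 and 4.00 in control and 3.16 and 3.23 in miR-125b cells with IL-7, and at 2.99 and 3.13 in control and 2.81 and 3.04 in miR-125b cells without it. The control arrays with IL-7 were the highest and differed most between replicates. The average change was −0.33 (SE 0.14, adjusted p = 0.172).

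Trib3, a pseudokinase that feeds back on ATF4 and CHOP, read 1.34 and 1.49 in control and 1.42 and 1.77 in miR-125b cells with IL-7, and 1.12 and 1.04 in control and 1.55 and 1.89 in miR-125b cells without it. The vectors overlapped with IL-7 and were apart without it. The average change was 0.41 (SE 0.11, adjusted p = 0.065).

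Asns, which makes asparagine, read 5.43 and 5.53 in control and 5.57 and 5.42 in miR-125b cells with IL-7, and 5.22 and 5.41 in control and 5.38 and 5.58 in miR-125b cells without it. The vectors overlapped in both conditions, and the average change was 0.09 (SE 0.08, adjusted p = 0.486).

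Among the other stress genes, the average change was −0.51 (SE 0.17, adjusted p = 0.0948) for Nupr1, a small stress-induced nuclear protein, with both miR-125b arrays below both control arrays in each condition. It was −0.02 (SE 0.09, adjusted p = 0.911) for Eif4ebp1, whose protein holds back cap-dependent translation. Vldlr, a lipoprotein receptor, was well above background on both miR-125b arrays with IL-7 and on no other, so only bounds can be given. It was at least 1.81-fold higher there than in control cells with IL-7 and at least 2.53-fold higher than in miR-125b cells without IL-7. Limma called it on withdrawal in miR-125b cells, a call lost in 10 of 18 alternatives. Vldlr passed the filter only through the group in which it was high, so that call is not taken as support for a change. Each bound sets the mean of the brighter group against the limit of detection of each dim array, or against the probe's signal there if that was higher. Cebpb, a C/EBP factor, was well above background on 1 of 2 control arrays in each condition and on no miR-125b array, and it was not tested. With IL-7 the mean of the 2 control arrays was 1.33-fold above the limit of detection of the miR-125b arrays, and without IL-7 it was 1.45-fold above. Each mean includes a control array that was not well above background, so these values are not lower bounds.

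For the synthetases, 17 of 20 average changes lay above 0 and 3 below, against 9347 of 20677 genes above 0. They ran from −0.07 (Vars) to 0.37 (Iars). Iars was the 1 called, and 9 of 20 had an unadjusted p under 0.05, against 6826 of 20677 genes. After Iars the largest changes were 0.35 (SE 0.11, adjusted p = 0.0897) for Farsb, a subunit of the phenylalanyl-tRNA synthetase, and 0.33 (SE 0.09, adjusted p = 0.0697) for Eprs, which charges both glutamate and proline tRNAs. Farsa, the other phenylalanyl-tRNA synthetase subunit, had 0.12 (SE 0.06, adjusted p = 0.217). Both miR-125b arrays lay above both control arrays in each condition for 6 of 20 synthetases (Eprs, Iars, Kars, Nars, Rars and Wars) and 3 of 14 stress genes (Aldh18a1, Cth and Pycr1), against 14.3% of all genes. They lay below in each condition for 0 of 20 synthetases and 4 of 14 stress genes (Atf4, Cebpg, Ddit4 and Nupr1), against 18% of all genes. The synthetase median on average stayed above 0 under all alternatives tried, from 0.12 to 0.31, a range that includes shifts of all genes with the scaling. Relative to the median of all genes it was 0.18, and 0.15 to 0.28 in the alternatives.

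Within a single IL-7 condition fewer genes were called. With IL-7 limma called 1 of 34 genes, Ddit4, which was lower, against 2.6% of all genes (1.14% higher, 1.46% lower). It called 0 of 20 synthetases, and 0 of the 20 had an unadjusted p under 0.05, against 4269 of 20677 genes. Without IL-7 it called 4 of 34, against 6.42% of all genes (2.95% higher, 3.48% lower): Iars and Pycr1 higher, Ddit4 and Cebpg lower. The 4 calls without IL-7 became 0 without any 1 of the 4 arrays of that condition, and 1 if either of the control arrays with IL-7 was left out.

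**Figure D2:**
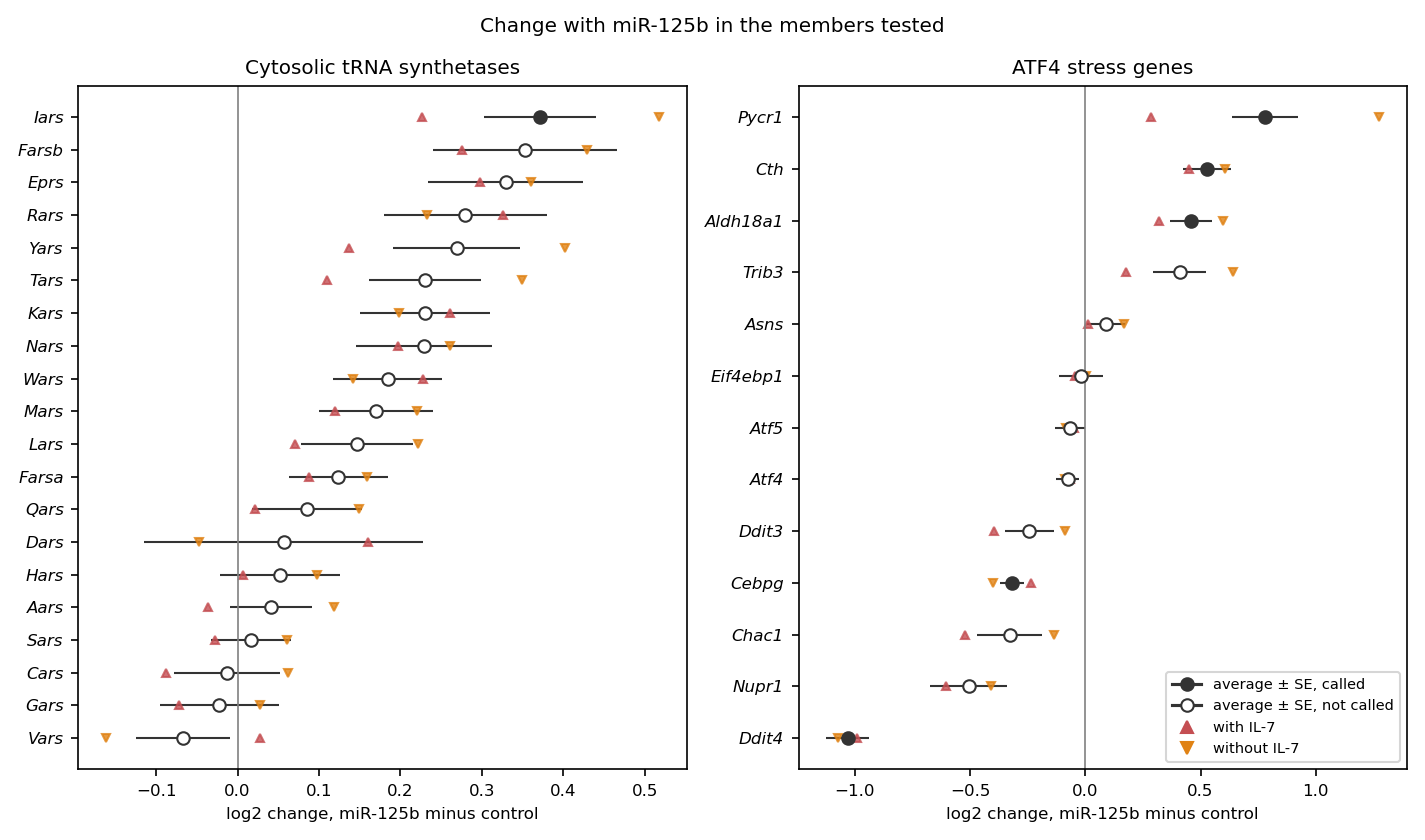
Log2 change with miR-125b (x axis) for the 20 synthetases and 13 of the stress genes (y axis, Vldlr and Cebpb left out because they were dim on most arrays). Circles give the average over both IL-7 conditions with its SE, filled where called, and triangles the change within each condition; Ddit4 lies lowest at −1.03 and Pycr1 highest at 0.78.

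The genes that sense stress upstream of ATF4 were read from a list of 16 kinases, eIF2 and eIF2B subunits and eIF2 phosphatase subunits, all tested. With miR-125b, 2 rose and 2 fell on average, where 7.27% of all genes were called higher and 8.57% lower. Eif2ak4 encodes GCN2, the kinase that senses uncharged tRNA. It stood at 2.48 and 2.46 in control and 3.24 and 2.96 in miR-125b cells with IL-7, and at 2.86 and 2.89 in control and 3.90 and 3.64 in miR-125b cells without it. The vectors were apart in each condition, with an average change of 0.76 (adjusted p = 0.0077), called under all 18 alternatives. Impact, whose protein restrains GCN2, changed by 0.62 (adjusted p = 0.0128), which was lost without control replicate 1 or either miR-125b replicate without IL-7 (adjusted p 0.0504 to 0.0547) and with the mean of all its probes. Eif2ak3, the endoplasmic reticulum kinase PERK, changed by −0.34 (adjusted p = 0.0277), a call lost in 9 of 18 alternatives.

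The counts of this paragraph stand beside 7.27% of all genes called higher and 8.57% called lower. Genes that handle tRNA or scaffold the synthetases were higher in 5 of 14 cases and lower in 0, with a median change of 0.31. The pseudouridine synthase gene Pus7 changed by 0.85 (adjusted p = 0.0198), the tRNA methyltransferase gene Trmt61a by 0.81 (adjusted p = 0.0139) and the cytosine methyltransferase gene Nsun2 by 0.50 (adjusted p = 0.0436). Among mitochondrial synthetases 2 of 16 tested rose and 0 fell: Ears2 by 0.79 (adjusted p = 0.0222) and Vars2 by 0.24 (adjusted p = 0.0335). Amino acid transporters rose in 3 of 10 cases and fell in 0. These were Slc6a9 for glycine by 0.59 (adjusted p = 0.0430), Slc7a5 for large neutral amino acids by 0.42 (adjusted p = 0.0171) and Slc1a5 for glutamine by 0.24 (adjusted p = 0.0306).

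The list of serine, glycine and one-carbon genes also holds transaminase genes, and 2 of its 9 tested genes rose and 0 fell. Both were transaminase genes, Gpt2 with 0.67 (adjusted p = 0.0256) and Got1 with 0.33 (adjusted p = 0.0242). The other 7 genes of that list were not called. Other ATF4 or CHOP targets showed 1 higher (Ndrg1, 0.53, adjusted p = 0.0366) and 1 lower (Gtpbp2, −0.32, adjusted p = 0.0452) of 16. In the chaperone arms driven by ATF6 and XBP1, 4 of 20 rose and 1 fell, among them Calr by 0.50 (adjusted p = 0.0232), Xbp1 by 0.41 (adjusted p = 0.0383) and Hyou1 by 0.38 (adjusted p = 0.0155). Against these counts stands the 15.8% of all genes called (7.27% higher, 8.57% lower). Of the genes named in the pathway lists, each average call other than Eif2ak4 was lost in 3 to 8 of the 8 fits without 1 array, with adjusted p up to 0.133.

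The response to 24 h without IL-7 was asked in control and miR-125b cells separately. In control cells 16 of 20 synthetases fell and 0 rose, with a median of −0.53 against −0.13 over all genes. In miR-125b cells 15 of 20 fell and 0 rose, with a median of −0.43 against −0.11. The 16 became 10 with quantile normalization and in the authors' value table. The 15 became 8 without miR-125b replicate 2 with IL-7 or replicate 1 without it, 9 with no filter on dim probes or with the 75th percentile over probes above background on all arrays. Ddit4 rose in both. Of all genes tested, 54.3% were called in control cells (34.1% lower, 20.2% higher) and 52.5% in miR-125b cells (32.1% lower, 20.5% higher).

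All 34 genes together gave 22 calls in control cells (21 lower) and 19 in miR-125b cells (18 lower, Vldlr among them). The Vldlr call adds no support, because that gene passed the filter only through the group in which it was high. Called lower in both were 14 synthetases and 2 stress genes, against 28.1% of all genes. In miR-125b cells the 19 calls became 11 without miR-125b replicate 2 with IL-7 or replicate 1 without it, and 12 with the 75th percentile over probes above background on all arrays. Of the synthetases, 15 of 20 lie among the 25% of genes with the highest mean signal, where 55.6% of genes were called lower in control and 56.1% in miR-125b cells and the median change was −0.33 and −0.34. Because slide and scan differ between the conditions, these falls cannot be told apart from them. Relative to the median of all genes, the synthetase median was −0.40 in control and −0.32 in miR-125b cells, and it was −0.18 and −0.11 with another background correction (normexp), where it lay nearest to 0. Of all calls in control cells 37.2% were higher, against 16.8% with scaling to the median, 25.4% with normexp and 50.2% with the percentile over probes above background on all arrays; in miR-125b cells these shares were 39.0%, 20.9%, 25.1% and 54.4%. The median of all genes in control cells moved from −0.13 to −0.47 with scaling to the median and to 0.01 with that percentile.

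Among the synthetases the largest falls were in Farsb and Kars. Farsb had 3.79 and 3.61 in control and 3.79 and 4.17 in miR-125b cells with IL-7, and 2.58 and 2.72 in control and 2.97 and 3.19 in miR-125b cells without it. It fell by 1.05 in control (SE 0.16, adjusted p = 0.00359) and by 0.90 in miR-125b cells (SE 0.16, adjusted p = 0.00641). Kars, the lysyl-tRNA synthetase, had 5.65 and 5.43 in control and 5.70 and 5.90 in miR-125b cells with IL-7, and 4.61 and 4.64 in control and 4.77 and 4.88 in miR-125b cells without it. It fell by 0.91 (SE 0.11, adjusted p = 0.00217) and by 0.98 (SE 0.11, adjusted p = 0.00237). For both genes every array without IL-7 lay below every array with it.

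Rars, Mars, Gars, Farsa, Wars, Hars, Tars, Yars, Nars, Qars, Sars and Vars were also called lower in both, from −0.85 (Rars in miR-125b cells) to −0.29 (Qars in miR-125b cells). Of 19 alternatives, the call in miR-125b cells was lost in 12 for Nars, 8 for Tars, 6 for Sars, 5 for Yars and 3 for Hars. For Qars it was lost in 11, and the direction reversed in 2 more. The call in control cells was lost in 7 for Vars and in 4 for Nars and for Qars. The other calls of these 12 genes were lost in at most 2. For Qars, the glutaminyl-tRNA synthetase, the change in miR-125b cells turned to 0.07 with quantile normalization and in the authors' value table. Aars and Iars were called lower in control cells only, at −0.33 and −0.41 against −0.17 (adjusted p = 0.0859) and −0.12 (adjusted p = 0.34) in miR-125b cells, and each call was lost in 6 of 19 alternatives. Dars was called only in miR-125b cells (−0.78, adjusted p = 0.039, against −0.57, adjusted p = 0.0926). That call was lost in 9 of 19 alternatives, and Dars was called in control cells in 5. Eprs, Cars and Lars were called in neither. Where other probes exist, a further Aars probe changed by 0.28 and 0.38 and the last of 3 Farsa probes by 0.64 and 0.43, in control and miR-125b cells, against the direction of the probe used.

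Among the stress genes, Ddit4 rose by 1.47 in control (SE 0.13, adjusted p = 0.00147) and by 1.39 in miR-125b cells (SE 0.13, adjusted p = 0.00188), and both calls held under all 19 alternatives. Eif4ebp1 had 5.49 and 5.36 in control and 5.27 and 5.50 in miR-125b cells with IL-7, and 4.33 and 4.59 in control and 4.40 and 4.54 in miR-125b cells without it. The conditions did not overlap, while the vectors did. It fell by 0.96 (SE 0.13, adjusted p = 0.0028) and by 0.92 (SE 0.13, adjusted p = 0.00377). Cebpg fell by 0.40 (adjusted p = 0.00717) and by 0.56 (adjusted p = 0.00305).

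Pycr1 fell by 1.25 in control cells (SE 0.20, adjusted p = 0.00446), against −0.26 in miR-125b cells (SE 0.20, adjusted p = 0.323). Aldh18a1 fell by 0.42 in control cells (adjusted p = 0.0358) against −0.14 (adjusted p = 0.395), and Chac1 by 0.65 (adjusted p = 0.0364), a call lost in 12 of 19 alternatives, against −0.27 (adjusted p = 0.304). Atf4 changed by −0.05 (SE 0.07, adjusted p = 0.587) in control and −0.07 (SE 0.07, adjusted p = 0.441) in miR-125b cells. Its other probe changed by −0.21 and −0.08. Atf4 was called in 3 alternatives in control and 2 in miR-125b cells, and these calls cannot be read as falls. Their direction is not given here. Quantile normalization and the authors' value table each called 2 of the 34 genes higher in either withdrawal, where the main fit called 1 (Ddit4). For Ddit3 the values were −0.03 (adjusted p = 0.857) and 0.27 (adjusted p = 0.181), for Trib3 −0.34 (adjusted p = 0.124) and 0.13 (adjusted p = 0.539), and for Asns −0.17 (adjusted p = 0.247) and −0.02 (adjusted p = 0.911). Atf5, Asns, Trib3, Ddit3, Nupr1 and Cth were called in neither withdrawal.

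**Figure D3:**
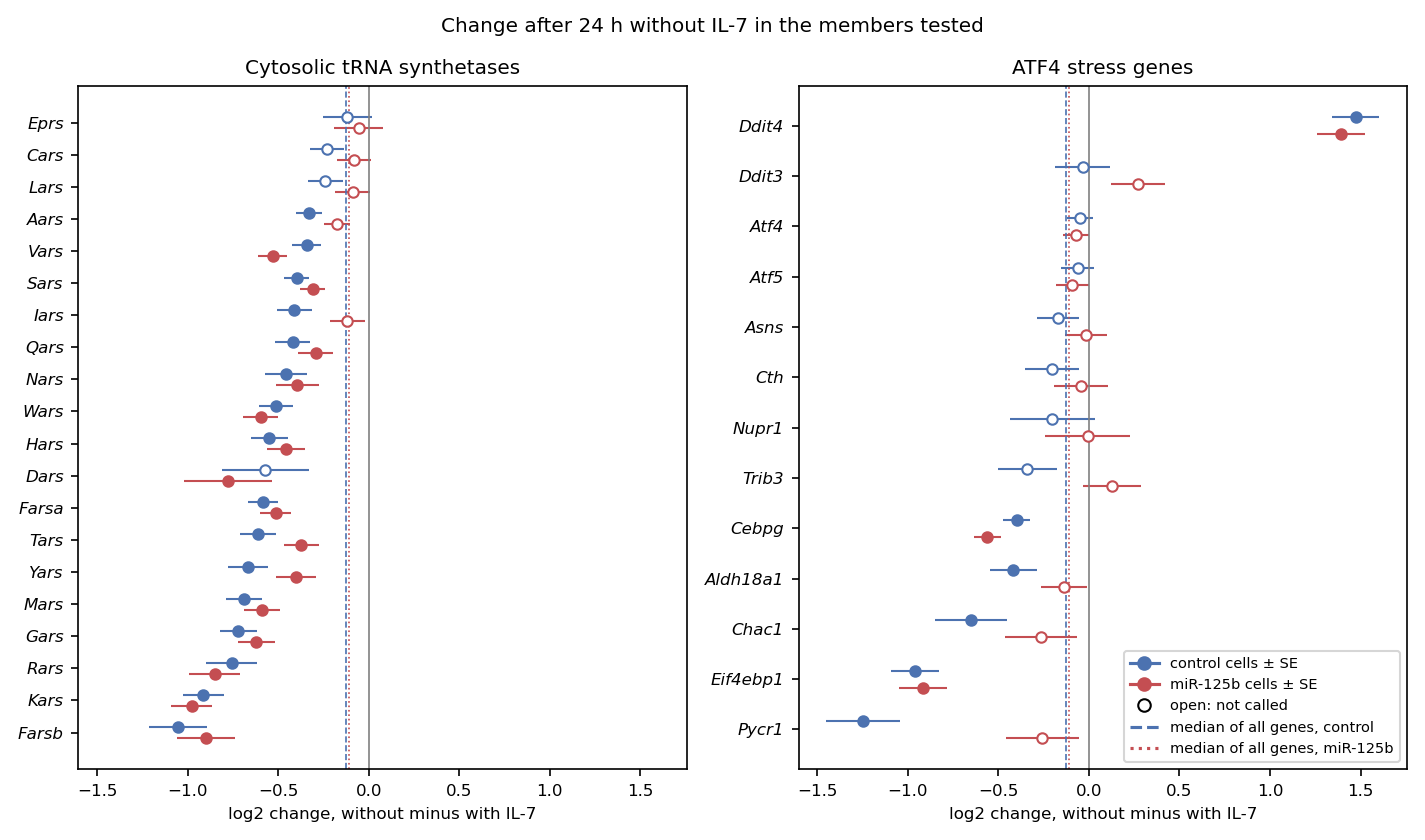
Log2 change after 24 h without IL-7 (x axis) in control and miR-125b cells, with SE, for the 20 synthetases and 13 stress genes (y axis, Vldlr and Cebpb left out because they were dim on most arrays). Filled points were called and vertical lines give the medians of all genes; Ddit4 lies at 1.47 and 1.39 and all synthetases lie below 0 in both cell types.

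Whether both withdrawals differed was tested as an interaction. Limma called 0 of 34 genes and 0 of all genes (0%), with an unadjusted p under 0.05 for 1 of 34 and for 1208 of 20677. That gene was Pycr1, whose change on withdrawal was 0.99 higher in miR-125b cells (SE 0.29, adjusted p = 0.661). So no gene called on withdrawal in one cell type and missed in the other is shown to differ between them. In the alternatives 0 of the 34 genes was called.

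The neighbouring lists gave the following calls on withdrawal, control cells before miR-125b cells, beside 34.1% and 32.1% of all genes called lower and 20.2% and 20.5% called higher. Synthetase scaffolds and tRNA handling fell in 12 and 13 of 14 and rose in 0, with medians of −0.76 and −0.66. Pus7 changed by −1.64 and −1.22, Trmt61a by −1.45 and −0.91 and Pus1, another pseudouridine synthase gene, by −1.21 and −1.11. Mitochondrial synthetases fell in 12 and 12 of 16 and rose in 1 and 1, led by Ears2 at −1.63 and −1.17. The serine, glycine and one-carbon list, with its transaminase genes, fell in 7 and 7 of 9. Among them were Phgdh, which opens serine synthesis, at −0.87 and −0.60, and Shmt2, which makes glycine in mitochondria, at −0.86 and −0.67.

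The eIF2 list fell in 8 and 7 of 16 and rose in 3 and 2. The kinase genes Eif2ak3 and Eif2ak4 were among those that rose, by 0.85 and 0.55 and by 0.41 and 0.67. Eif2s1, the subunit that the kinases phosphorylate, changed by −0.86 and −0.96, and Eif2b3 and Eif2b5 of the exchange factor by −1.31 and −1.05 and by −0.75 and −0.75. Amino acid transporters fell in 4 and 2 of 10, near the share of all genes, while Slc1a4 for neutral amino acids rose by 0.83 and 0.70. Other ATF4 or CHOP targets rose in 4 and 7 of 16 and fell in 3 and 1, with Ndrg1 at 0.73 and 1.05 and Bbc3, the pro-apoptotic PUMA, at 0.80 and 0.40. In the chaperone arms 12 and 12 of 20 fell and 1 and 3 rose, with Calr at −0.89 and −0.67 and Dnajb9 at 0.72 and 0.72. All genes named here with values on withdrawal were called in both cell types.

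**Figure D4:**
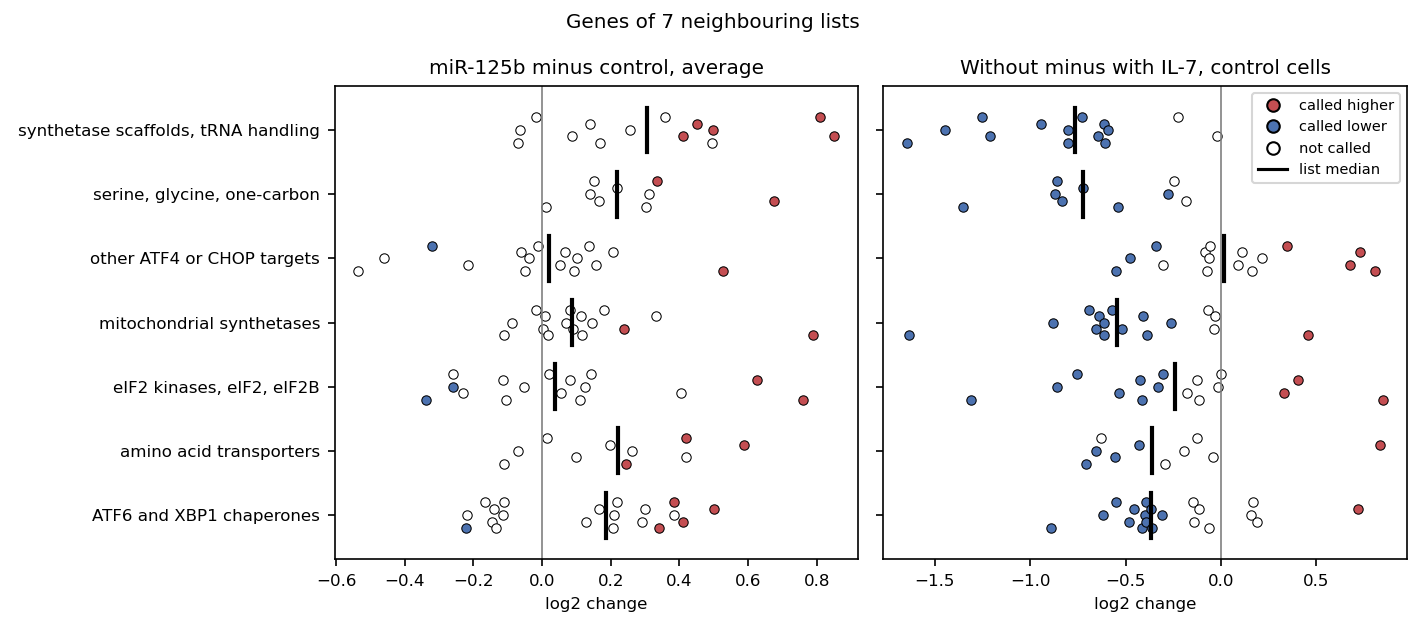
Log2 change of the genes tested in 7 neighbouring lists (y axis) with miR-125b on average (left) and without IL-7 in control cells (right), a point for each gene, coloured where called, and a bar at the median of each list. The tRNA handling list has medians of 0.31 with miR-125b and −0.76 without IL-7.

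Genes with and without the composite core gave overlapping changes. With miR-125b the median was 0.23 over the 11 genes with a core (range −0.51 to 0.78) and 0.07 over the 14 tested genes without one (range −1.03 to 0.46). On withdrawal in control cells the medians were −0.61 and −0.41, and in miR-125b cells −0.26 and −0.30. The 11 genes with a core include Vldlr, which was dim on most arrays, so its change enters these medians although only bounds can be given for it. Ddit4, Cebpg and Aldh18a1, called with miR-125b, have a window without the core, Pycr1 and Iars have one with it, and Cth has no window in the table.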

How the data were processed

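RNA was measured on 8 single-colour Agilent arrays, 2 for each of 4 groups. Per the file headers, the deposited scanner files give each spot a linear intensity that the Feature Extraction software had corrected for background and spatial trend but not scaled between arrays, beside quality marks of 0 or 1 (other units). That software was version 10.7.3.1 on the slide with IL-7 and 10.7.1.1 on the other, per the file headers, while the submitters' processing notes give 10.7.1.1 alone. The authors also deposited a value table of intensity values on a linear scale for 55821 rows, used as an alternative.

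Control spots were left out (3671 of 62976) and spots averaged to 55681 probes, of which 58 marked not uniform were dropped. Values are log2 signal minus the array's log2 75th percentile over non-control spots. A probe entered the tests if both arrays of some group read it well above background (29811 probes), and each gene name was given its brightest kept probe, which left 20677 genes. Gene names came from a RefSeq table for 27235 probes matched on accession, 3581 on symbol and 565 on synonym, and from the files for 24300. Probe positions are those of the files (mm9). No genome was used. For a gene counted as having the core, its stretch and position are not reported here.

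Limma 3.58.1 under R 4.3.3 (lmFit and eBayes, 4 group means, 4 residual degrees of freedom) gave 6 comparisons, two-sided, with Benjamini-Hochberg adjustment over all genes and calls under 0.05. The fit was tested on simulated data. The number of arrays limits the precision. The members and lists were chosen with earlier results of these data known. Values per array are printed for members called in the average vector comparison or the interaction and for Atf4, Atf5, Ddit3, Asns, Trib3 and Chac1; Eif2ak4, Farsb, Kars and Eif4ebp1 were added after their values were seen. From each list at most the 3 largest calls on average and at most the 3 largest called in both withdrawals were eligible to be named. Likeness to Atf4 over arrays is not given, because the arrays fall into 4 groups. Alternatives changed the scaling, background, filter, probe choice, arrays fitted, variance trend, replicate block and value source, and left out each array in turn.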

Additional observations from a re-analysis of the deposited data

How the results depend on the processing

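The counts of called genes depended on the processing as follows, for 19 alternatives (18 for the average and the interaction). Of 34 genes, the 6 called on average with miR-125b became 10 with normexp, 2 with no filter on dim probes and 12 with a mean-variance trend, and 1 to 7 without 1 array. The 1 called with IL-7 became 0 with quantile normalization, no filter, only the 4 arrays compared, or the authors' value table, and 0 to 1 without 1 array. The 4 called without IL-7 became 7 with normexp and with the filter on all arrays, 1 with no filter or only the 4 arrays, and 8 with the trend, and 0 to 3 without 1 array. On withdrawal the 22 in control cells ranged from 16 to 31 and were 16 to 22 without 1 array. The 19 in miR-125b cells became 12 with no filter and 12 with the 75th percentile over probes above background on all arrays, and were 11 to 17 without 1 array. The interaction called 0 genes of the 34 under every alternative run. The reversals were Qars in miR-125b cells on withdrawal, at 0.0717 with quantile normalization and 0.0741 in the authors' value table. The share of all calls that were higher moved from 43.8% to 65.0% with IL-7 and from 45.9% to 78.6% without it when scaled to the median. Over all genes tested, calls with miR-125b numbered 3275 on average (981, without control replicate 1 of the arrays without IL-7, to 4725, with normexp), 537 with IL-7 (0, with no filter, with only the 4 arrays compared or without replicate 2 of either vector with IL-7, to 1486, with the trend) and 1328 without it (8, without miR-125b replicate 1 of the arrays without IL-7, to 2649, with normexp). The interaction called 0 to 5. The cause of these changes was not tested.

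Replicate numbers are shared between groups, but the labels tie them to no batch, and differences between replicates correlated at −0.10 to 0.11 over the 6 pairs of groups, so the numbers were not taken to pair the arrays. With the replicate number as a block, 7 genes were called on average, 0 with IL-7, 2 without IL-7, 22 on withdrawal in the controls, 16 on withdrawal with miR-125b and 0 for the interaction. Signal limits Vldlr and Cebpb, which were dim on most arrays.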
